A study of Homo sapiens with 6 samples.

Results

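The integrin and laminin genes were followed in T-24, an established bladder cancer cell line of human epithelial origin, after treatment with CCT068127. This compound is known to inhibit CDK2 and CDK9, kinases of the cell cycle and of transcription. Members were defined by gene symbol, in families chosen with earlier results of these data known. The members comprise every integrin alpha chain, integrin beta chain and laminin alpha, beta or gamma chain in the deposited tables, 38 of 38557 genes. They are 18 integrin alpha, 8 integrin beta, 5 laminin alpha, 4 laminin beta and 3 laminin gamma genes. Cells received 1 µM CCT068127 or the vehicle DMSO for 48 h, and poly(A) RNA was sequenced from 3 libraries per group. The control cells are labelled wild type, and the labels name no genetic change for the treated cells, so the groups share the T-24 background and differ in the agent. All libraries come from 1 cell line in culture, per the labels from independent biological replicates.

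Integrins are transmembrane receptors made of an alpha and a beta chain, which bind matrix proteins outside the cell and connect to actin, or in the case of integrin alpha6beta4 to intermediate filaments, inside it. Laminins are secreted trimers of an alpha, a beta and a gamma chain that form the base layer of basement membranes. Laminin-332 contains the products of LAMA3 and LAMB3. Laminin-511 is made of LAMA5, LAMB1 and LAMC1, and laminin-521 of LAMA5, LAMB2 and LAMC1. In stratified epithelia and urothelium, laminin-332 and integrin alpha6beta4 meet in hemidesmosomes, which anchor basal cells to the basement membrane.

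Depth differed strongly between libraries. DMSO replicates 1 and 2 held 371044040 and 411097626 counts, while the other 4 libraries held between 1966742 and 5955296. A count of 0 allowed, at 3 counts of the total, up to 0.00809 and 0.0073 CPM (counts normalised to library size) in these deep libraries and between 0.504 and 1.53 CPM in the others. Such limits cover counting error only. No spike-in is named, so every change is relative within a library, and in bulk RNA fewer cells of a type and less RNA per cell cannot be told apart. The cytokeratin genes KRT7, KRT8, KRT18 and KRT19 stood between 191 and 2648 TPM (transcript abundance normalised to transcript length and library size) in every library, but the E-cadherin gene CDH1 was at or below 0.14 TPM in all 6 and EPCAM between 2.67 and 5.71 TPM. The summed TPM of the 6 epithelial markers was 3680 to 4870 in DMSO and 5280 to 6730 in CCT068127 libraries. The mesenchymal markers VIM and CDH2 summed to 427 to 519 and 412 to 432 TPM. Of 6 leukocyte markers MS4A1 and TYROBP were listed at 0 in every library, and the 6 summed to 6.75 to 7.85 TPM in DMSO and 2.30 to 4.08 TPM in CCT068127 libraries. The 4 endothelial markers summed to 4.66 to 5.67 and 2.26 to 5.09 TPM, with KDR listed at 0 throughout. The 4 fibroblast markers summed to at most 0.16 TPM in any library, with DCN and LUM listed at 0 throughout.

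CCT068127-treated cells had more mRNA of the laminin-332 chain LAMB3 and of ITGB1 and ITGA6, and less of ITGB4, ITGB8, ITGA10, ITGA11, LAMA5, LAMB1 and LAMB2, than DMSO-treated cells. Of the 38 members 25 passed the low-count filter, and among these 13 rose, 7 fell and 5 did not pass an adjusted p of 0.05 (edgeR quasi-likelihood test, n = 3 per group, p-values adjusted over all 13597 genes tested). That is 80% of the tested members, beside 64.7% of all tested genes. The share that rose was 52%, beside 31.9% of all tested genes, and the share that fell was 28%, beside 32.8%. The median log2 fold change was 0.27 over the 25 tested members and -0.05 over all tested genes. It was 0.24 over the 16 tested integrins, of which 8 rose and 4 fell, and 0.36 over the 9 tested laminins, of which 5 rose and 3 fell. The groups did not overlap in CPM for 14 of the 25 tested members on the higher side and 8 on the lower, beside 69.4% of all tested genes, 33.3% higher and 36.0% lower. Of the 25 tested members 4 rose and 5 fell by 2-fold or more, beside 15.5% higher and 12.9% lower of all tested genes. The number of members that rose depended on the samples and the scaling: without CCT068127 replicate 1 it was 8, beside 4047 of all 13597 genes. Under scaling by library totals 7 of 25 tested members were called higher and 10 lower, beside 3006 and 6567 of all 13597 genes. For log2(TPM + 1) the calls were 5 higher and 10 lower of 24 tested members, beside 2474 and 7472 of all 14394 genes. Scaling by library totals moved the median of all genes to -0.36, and log2(TPM + 1) values moved it to -0.46. The genes named at the head of this paragraph kept their call under TMM, DESeq2 size factors, library totals and log2(TPM + 1) values alike.

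**Figure D1:**
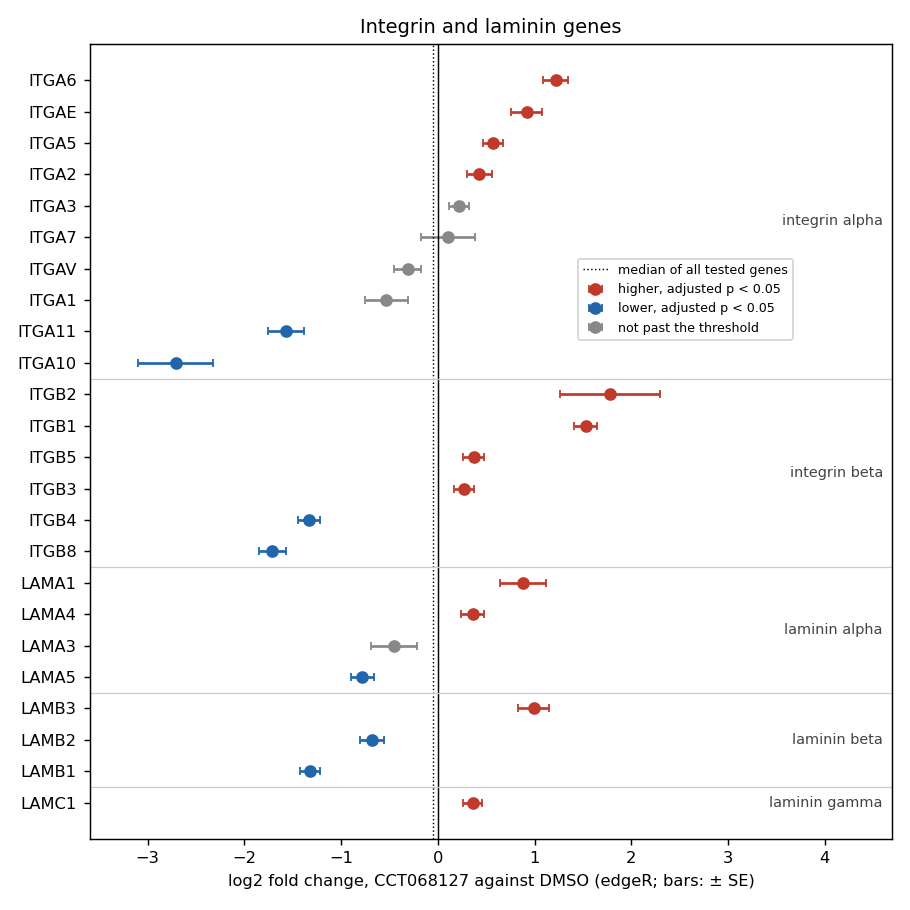
Log2 fold change (CCT068127 against DMSO, edgeR with TMM scaling) of 24 tested members, one point per gene with its standard error, grouped by chain class and coloured by call. ITGA10 lies lowest at -2.71, and each of the classes integrin alpha, integrin beta, laminin alpha and laminin beta holds members on both sides of 0.

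The stretches upstream of the genes whose mRNA moved are shown for 3 members that rose (ITGB1, ITGA6, LAMB3) and 1 that fell (LAMB1), since those genes moved apart within their families. RefSeq promoter windows of 300 bases (build GRCh38.p14, 250 bases before to 50 after the annotated start) were found for 26 of the 38 members. The 250 bases before the start are printed, 5′ to 3′ on the gene's strand. Capitals mark motif matches on either strand, and matches that overlap form one run. The GC box was searched as GGGCGG. For the E-box the letters were CACGTG, which read the same on both strands. The TATA box was searched as TATAAA.
ITGB1 (chr10:32958231-32958480, minus strand): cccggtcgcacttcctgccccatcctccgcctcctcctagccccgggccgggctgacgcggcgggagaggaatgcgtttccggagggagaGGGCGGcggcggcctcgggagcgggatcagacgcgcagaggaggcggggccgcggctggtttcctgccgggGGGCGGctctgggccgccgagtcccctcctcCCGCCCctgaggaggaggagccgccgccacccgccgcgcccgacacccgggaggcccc
ITGA6 (chr2:172427086-172427335, plus strand): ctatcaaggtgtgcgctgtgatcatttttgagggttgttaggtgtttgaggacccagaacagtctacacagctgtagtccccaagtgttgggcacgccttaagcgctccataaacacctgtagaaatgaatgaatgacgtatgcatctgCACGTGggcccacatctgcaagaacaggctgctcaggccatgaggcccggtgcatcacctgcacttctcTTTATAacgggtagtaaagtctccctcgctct
LAMB3 (chr1:209652426-209652675, minus strand): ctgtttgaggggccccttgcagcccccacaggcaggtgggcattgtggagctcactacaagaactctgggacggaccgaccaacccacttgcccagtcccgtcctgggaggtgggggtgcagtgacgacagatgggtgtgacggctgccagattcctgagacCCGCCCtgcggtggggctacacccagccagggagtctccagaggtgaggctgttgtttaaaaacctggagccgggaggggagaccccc
LAMB1 (chr7:108003162-108003411, minus strand): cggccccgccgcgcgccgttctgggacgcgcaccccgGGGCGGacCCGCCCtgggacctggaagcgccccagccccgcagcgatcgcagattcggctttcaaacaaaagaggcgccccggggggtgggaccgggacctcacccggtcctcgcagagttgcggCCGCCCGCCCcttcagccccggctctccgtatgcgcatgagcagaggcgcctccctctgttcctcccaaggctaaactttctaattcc
GGGCGG was found 3 times in the ITGB1 window, 4 times in that of LAMB1 and 1 time in those of LAMB3 and ITGA6, the ITGA6 match lying in the 50 bases after the start. Among the 26 member windows 14 (53.8%) held GGGCGG, beside 44.6% of 27305 RefSeq windows and 70.3% of the windows of tested genes. ITGA6 was the only member window with CACGTG or with TATAAA, which 7.43% and 12.0% of all windows hold. Among the windows of tested genes 10.1% hold CACGTG and 5.76% TATAAA. The AP-1 motif TGANTCA was found in 2 of 26 member windows (7.69%), those of ITGA5 and LAMA3. It lay in 7.76% of all windows and in 4.51% of the windows of tested genes. A match describes the letters in the window and no more.

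Among the beta chains, the common partner ITGB1 and the hemidesmosomal chain ITGB4 moved in opposite directions. ITGB1 (chromosome 10, 32900318 to 32958230, GRCh38), the beta chain shared by most laminin, collagen and fibronectin receptors, stood at 1072, 1227 and 1171 CPM in DMSO replicates 1 to 3 and at 2898, 3782 and 3322 CPM in CCT068127 replicates 1 to 3. The lowest treated library was above the highest control library. ITGB1 rose by 1.53 ± 0.12 on the log2 scale (SE; edgeR adjusted p = 1.22e-06), a 2.88-fold higher level. ITGB4 (chromosome 17, 75721459 to 75757818), which pairs with ITGA6 and binds laminin-332, stood at 207, 230 and 193 CPM in DMSO and at 86.8, 89.7 and 76.2 CPM in CCT068127 libraries. Each treated library was below every control library, and the log2 fold change was -1.33 ± 0.11 (edgeR adjusted p = 2.63e-06), a 2.51-fold lower level. GALK1, which overlaps ITGB4 on the opposite strand, had 16160 counts in DMSO replicate 1 where ITGB4 had 85621. In CCT068127 libraries GALK1 had 129, 29 and 77 counts where ITGB4 had 426, 157 and 322. How the counting treated strand is unknown here, and reads of overlapping genes may be assigned to the wrong gene. ITGB8 (chromosome 7, 20329766 to 20415754), which pairs with ITGAV to bind latent TGF-beta, stood at 49.1, 58.2 and 61.5 CPM in DMSO and at 15.9, 18.9 and 17.3 CPM in CCT068127 libraries. It fell by 1.71 on the log2 scale (SE 0.14, edgeR adjusted p = 2.11e-06), again without overlap between the groups.

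Changes in the other beta chains were small or rested on few counts. ITGB5, a vitronectin receptor chain, went from 238 ± 12.2 to 307 ± 44.6 CPM (SD, n = 3) and passed at 0.37 ± 0.11 on the log2 scale (edgeR adjusted p = 0.0158). ITGB3, which forms the vitronectin receptor with ITGAV, went from 92.2 ± 1.35 to 111 ± 7.91 CPM and passed with 0.27 ± 0.10 (edgeR adjusted p = 0.0314). Neither direction was independent of scaling: library totals gave 0.06 for ITGB5 and -0.05 for ITGB3, and log2(TPM + 1) values gave -0.05 and -0.22, with no call in these fits (adjusted p from 0.0604 to 0.675). Without a low-count filter neither was called (0.13 for ITGB5 and 0.03 for ITGB3). ITGB3 also lost its call without any 1 of the 3 DMSO libraries or CCT068127 replicate 1 (adjusted p from 0.054 to 0.107), and ITGB5 without DMSO replicate 3 (0.0584) or CCT068127 replicate 1 (0.23 on the log2 scale, adjusted p = 0.0525). ITGB2, the leukocyte beta chain, had 845, 333 and 6 counts in DMSO and 33, 4 and 15 counts in CCT068127 libraries. Its CPM were 2.05, 0.738 and 0.896 in DMSO and 6.73, 2.28 and 3.55 in CCT068127 libraries, so that CCT068127 replicate 1 was highest in its group and DMSO replicate 1 in its own. The log2 fold change of ITGB2 was 1.78 ± 0.52 (edgeR adjusted p = 0.0131), or 1.21 without CCT068127 replicate 1 (adjusted p = 0.186) and 2.62 without DMSO replicate 1 (adjusted p = 0.000112), and limma-voom (adjusted p = 0.0946) and log2(TPM + 1) values (0.72, adjusted p = 0.0654) gave no call either. Of the 6 leukocyte markers, MS4A1 and TYROBP were listed at 0, CD3E was at or below 0.05 TPM, PTPRC at or below 0.52 TPM and LST1 at or below 2.22 TPM in every library. CD14 stood at 4.37 to 5.93 TPM in DMSO and 0.94 to 2.79 TPM in CCT068127 libraries and fell by 0.94 on the log2 scale. Their part in the ITGB2 result was not tested.

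Among the alpha chains, the laminin receptor chain ITGA6 rose and the collagen receptor chains ITGA10 and ITGA11 fell. ITGA6 (chromosome 2, 172427336 to 172506459), which pairs with ITGB1 or ITGB4, stood at 158, 131 and 126 CPM in DMSO and at 283, 371 and 320 CPM in CCT068127 libraries. The groups were well apart, and ITGA6 rose by 1.22 ± 0.13 on the log2 scale (edgeR adjusted p = 1.39e-05). ITGA11 (chromosome 15, 68296532 to 68432163), a receptor chain for fibrillar collagen, stood at 83.3, 137 and 129 CPM in DMSO and at 39.9, 39.4 and 38.1 CPM in CCT068127 libraries. DMSO replicate 1 was the lowest control and still above every treated library, and the log2 fold change was -1.57 ± 0.19 (edgeR adjusted p = 3.89e-05). ITGA10 (chromosome 1, 145891208 to 145910050), a chain known from cartilage, stood at 10.3, 8.90 and 8.96 CPM in DMSO and at 2.65, 0.571 and 0.473 CPM in CCT068127 libraries. These last values rest on 13, 1 and 2 counts, and the log2 fold change of -2.71 ± 0.39 (edgeR adjusted p = 0.000137) became -4.25 without CCT068127 replicate 1 and -1.84 on log2(TPM + 1) values.

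ITGA3, a laminin receptor chain, was the most abundant alpha chain and did not pass. It stood at 1212, 1184 and 1117 CPM in DMSO and at 1528, 1226 and 1334 CPM in CCT068127 libraries, 0.22 ± 0.10 higher on the log2 scale (edgeR adjusted p = 0.0826). The groups did not overlap in CPM, yet in TPM they were apart in the other direction, with 490 to 531 in DMSO and 386 to 463 in CCT068127 libraries. On log2(TPM + 1) values ITGA3 was called lower (-0.27, adjusted p = 0.0253), and with DESeq2 it was called higher (0.26, adjusted p = 0.0262), as it was in edgeR without CCT068127 replicate 2 (0.28, adjusted p = 0.0227). Its direction is therefore relative to the scaling. ITGAV, the partner of ITGB3, ITGB5, ITGB6 and ITGB8, stood at 141, 162 and 163 CPM in DMSO and at 100, 154 and 126 CPM in CCT068127 libraries, and the groups overlapped. Its log2 fold change of -0.31 ± 0.14 did not pass (edgeR adjusted p = 0.0802). ITGAV was called lower with library totals (-0.62, adjusted p = 0.00335), on log2(TPM + 1) values (-0.78, adjusted p = 0.00397), with limma-voom (-0.36, adjusted p = 0.0453), without a low-count filter (-0.55, adjusted p = 0.000842), without DMSO replicate 1 (-0.38, adjusted p = 0.0475) and without CCT068127 replicate 2 (-0.47, adjusted p = 0.00857).

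ITGAE, known as the partner of ITGB7 in lymphocytes that bind E-cadherin, rose from 9.57 ± 0.723 to 18.5 ± 2.76 CPM (log2 fold change 0.92 ± 0.16, edgeR adjusted p = 0.000532). HASPIN, which lies within ITGAE on the opposite strand, had 2314, 1876 and 21 counts in DMSO and 54, 15 and 43 counts in CCT068127 libraries, where ITGAE had 4292, 4082 and 62 and then 75, 35 and 85. The call of ITGAE was lost on log2(TPM + 1) values (0.39, adjusted p = 0.0539). ITGA5, the fibronectin receptor chain, rose from 77.7 ± 2.50 to 115 ± 7.43 CPM (0.57 ± 0.10, edgeR adjusted p = 0.000403), but was not called for log2(TPM + 1) (0.14, adjusted p = 0.197) or without a low-count filter (0.33, adjusted p = 0.063). ITGA2, a collagen receptor chain, rose from 104 ± 7.8 to 142 ± 24.2 CPM (0.43 ± 0.13, edgeR adjusted p = 0.0134). It had no call with library totals (0.12, adjusted p = 0.438), on log2(TPM + 1) values (-0.05, adjusted p = 0.777), without a low-count filter (0.19, adjusted p = 0.333) or without CCT068127 replicate 3 (0.42, adjusted p = 0.0578). ITGA1, another collagen receptor chain, had 20, 11 and 23 counts in the treated libraries and lay at the threshold (-0.53 ± 0.22, edgeR adjusted p = 0.0507). It passed as lower with library totals (-0.84, adjusted p = 0.00539), on log2(TPM + 1) values (-0.49, adjusted p = 0.0248), without a low-count filter (-0.78, adjusted p = 0.0151) and without CCT068127 replicate 2 (-0.63, adjusted p = 0.0328). PELO lies within ITGA1 on the same strand and had 21890, 19755 and 276 counts in DMSO and 295, 97 and 207 in CCT068127 libraries, more than ITGA1 in each. ITGA7, a muscle laminin receptor chain, did not pass (0.11 ± 0.28, edgeR adjusted p = 0.743).

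LAMC1 (chromosome 1, 183023420 to 183145592), the gamma chain of most laminins, stood at 319, 325 and 303 CPM in DMSO and at 413, 438 and 369 CPM in CCT068127 libraries. The groups did not overlap in CPM, and LAMC1 passed at 0.36 ± 0.10 on the log2 scale (edgeR adjusted p = 0.00722). That call was lost with library totals (0.05, adjusted p = 0.636), without a low-count filter (0.12, adjusted p = 0.587) and for log2(TPM + 1) (-0.12, adjusted p = 0.265).

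The laminin beta chains split. LAMB3 (chromosome 1, 209614870 to 209652425), the beta chain of laminin-332, stood at 540, 395 and 402 CPM in DMSO and at 1054, 707 and 887 CPM in CCT068127 libraries. DMSO replicate 1 was the highest control, and the log2 fold change was 0.99 ± 0.16 (edgeR adjusted p = 0.000375). In TPM the groups of LAMB3 overlapped, since DMSO replicate 1 at 285 TPM lay above CCT068127 replicate 2 at 268 TPM, and on log2(TPM + 1) values without a filter the call was lost (0.50, adjusted p = 0.0872). LAMB1 (chromosome 7, 107923799 to 108003161), a beta chain of laminin-511, stood at 426, 410 and 371 CPM in DMSO and at 158, 165 and 163 CPM in CCT068127 libraries, or -1.32 ± 0.10 on the log2 scale (edgeR adjusted p = 9.99e-07). DLD, which overlaps LAMB1 on the opposite strand, had 21856, 23036 and 323 counts in DMSO and 267, 125 and 317 in CCT068127 libraries, where LAMB1 had 176091, 184734 and 2482 and then 774, 288 and 689. DLD thus had more counts relative to LAMB1 in the treated libraries. LAMB2 (chromosome 3, 49121114 to 49133050), the beta chain of laminin-521, stood at 274, 278 and 286 CPM in DMSO and at 189, 138 and 192 CPM in CCT068127 libraries, or -0.68 ± 0.12 on the log2 scale (edgeR adjusted p = 0.000676). All 3 treated libraries were below all 3 controls for both genes. The pseudogene LAMB2P1, with 215 counts in DMSO replicate 1, shares sequence with LAMB2, so a small part of the reads may be split between them.

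Among the alpha chains of laminin, the abundant LAMA5 fell. LAMA5 (chromosome 20, 62309065 to 62367312), which is found in most adult epithelial basement membranes, stood at 776, 797 and 762 CPM in DMSO and at 526, 377 and 450 CPM in CCT068127 libraries. The groups did not overlap, and the log2 fold change was -0.78 ± 0.12 (edgeR adjusted p = 0.000208). ADRM1, which overlaps LAMA5 on the opposite strand, had 78174, 75773 and 1166 counts in DMSO and 4008, 1032 and 3054 counts in CCT068127 libraries, where LAMA5 had 320463, 359415 and 5103 and then 2579, 660 and 1902. LAMA3, the alpha chain of laminin-332, was low. It stood at 7.71, 6.58 and 5.23 CPM in DMSO and at 4.69, 6.28 and 4.50 CPM in CCT068127 libraries, which overlap, and it did not pass (-0.45 ± 0.24, edgeR adjusted p = 0.119). LAMA3 was called lower with library totals (-0.76, adjusted p = 0.0141) and without a low-count filter (-0.70, adjusted p = 0.0331). LAMA4, a chain of vascular and mesenchymal laminins, went from 26.2 ± 1.09 to 34.2 ± 3.72 CPM (0.36 ± 0.12, edgeR adjusted p = 0.0195). It lost its call with library totals (0.05, adjusted p = 0.694), without a low-count filter (0.12, adjusted p = 0.669) and without DMSO replicate 1 or 3 or CCT068127 replicate 1 (adjusted p from 0.0534 to 0.0552), and on log2(TPM + 0.1) values (0.57, adjusted p = 0.0539). LAMA1, an embryonic laminin chain, went from 2.79 ± 0.122 to 4.85 ± 1.28 CPM (0.88 ± 0.24, edgeR adjusted p = 0.00821). It rests on 29, 6 and 22 treated counts, and its call was lost without CCT068127 replicate 1 (0.71, adjusted p = 0.0604), with library totals (0.57, adjusted p = 0.0522) and without a low-count filter (0.62, adjusted p = 0.11).

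**Figure D2:**
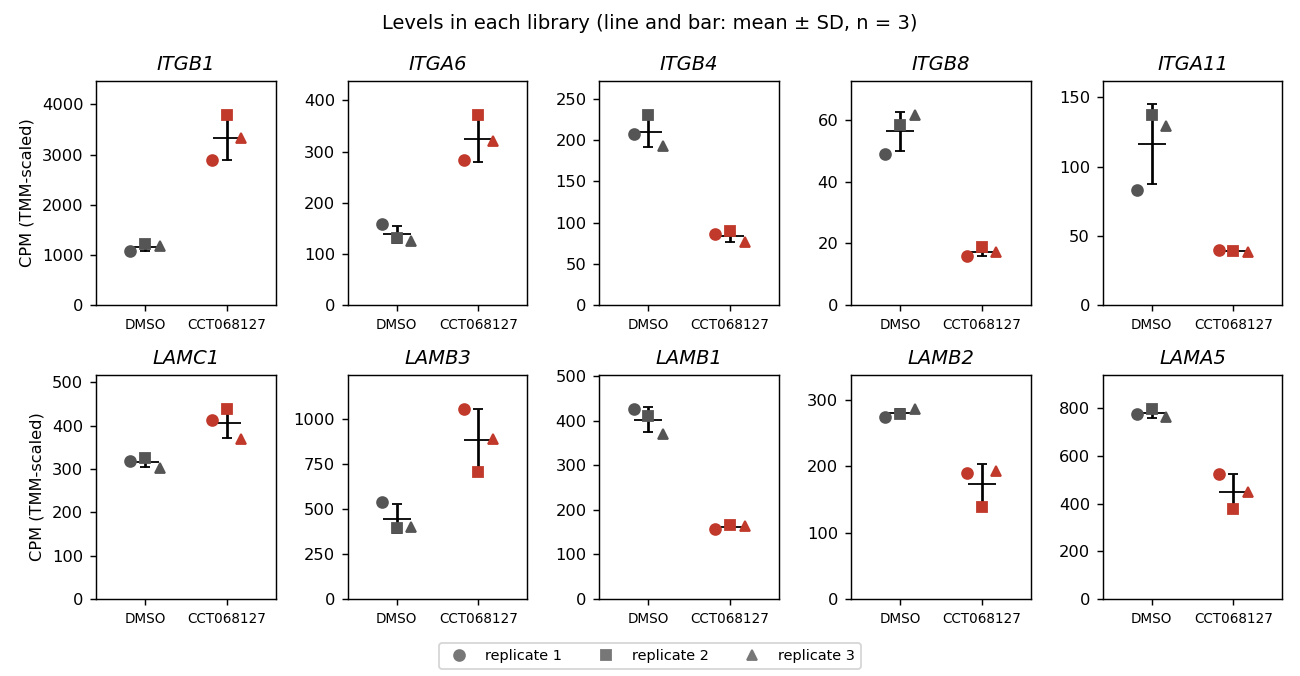
TMM-scaled CPM of 10 members in each library, with replicate numbers as symbols and the mean ± SD (n = 3) of each group as a line and bar, on linear axes that start at 0. ITGB1, ITGA6, LAMC1 and LAMB3 lie higher in all treated libraries and ITGB4, ITGB8, ITGA11, LAMB1, LAMB2 and LAMA5 lower, with no overlap between the groups.

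Since TPM is per transcript length, it allows levels to be compared between chains of a class. In DMSO the beta chains ranked, by mean TPM, ITGB1 (655 ± 39.6), ITGB5 (152 ± 4.44), ITGB4 (77.7 ± 5.99), ITGB3 (39.6 ± 0.674) and ITGB8 (13.6 ± 1.6), with no overlap between neighbours. In CCT068127 libraries ITGB4 (22.1 ± 1.79 TPM) stood below ITGB3 (34.0 ± 1.81 TPM). The ITGB1 share of beta chain TPM was 68.6%, 70.0% and 70.7% in DMSO and 83.3%, 88.7% and 87.2% in CCT068127 libraries, while that of ITGB4 was 8.65%, 8.56% and 7.61% and then 1.62%, 1.37% and 1.31%. The ratio of ITGA6 to ITGB4 TPM, the chains of the hemidesmosomal integrin, was 0.758, 0.563 and 0.653 in DMSO and 3.23, 4.26 and 4.13 in CCT068127 libraries. ITGA6 mRNA was thus below that of ITGB4 in all controls and above it in all treated libraries. Among alpha chains ITGA3 held 71.4 ± 1.10% of the class TPM in DMSO and 67.6 ± 5.16% in CCT068127 libraries, and ITGA6 7.12 ± 0.739% and 13.8 ± 2.59%.

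The laminin beta and alpha classes also changed in their make-up. LAMB3 held 47.9 ± 3.89% of beta chain TPM in DMSO and 78.5 ± 2.29% in CCT068127 libraries, and the LAMB1 share went from 30.7 ± 1.93% to 10.3 ± 1.95%. The laminin-332 chains LAMB3 and LAMA3 differed widely in level: they stood at 234 ± 44.7 and 1.57 ± 0.176 TPM in DMSO and at 330 ± 58.9 and 2 ± 1.09 TPM in CCT068127 libraries. Among laminin alpha chains the LAMA5 share was 88.3%, 89.7% and 90.7% in DMSO and 74.4%, 60.8% and 76.4% in CCT068127 libraries, lowest in CCT068127 replicate 2, and that of LAMA4 went from 8.93 ± 1.12% to 25.9 ± 7.38%. LAMA4 had fewer counts per TPM in every treated library, as given below. That difference adds to its TPM share and lowers the LAMA5 share, so these shares do not reflect read counts alone. Each of the shares of ITGB1, ITGB4, ITGA6, LAMB3, LAMB1, LAMA5 and LAMA4 differed without overlap (two-sided exact permutation p = 0.1, below which a comparison of 3 with 3 libraries cannot go, or 0.146 after Benjamini-Hochberg adjustment over 38 shares). That of ITGA3 overlapped between groups (exact permutation p = 0.4, adjusted 0.49). The ratio given is from a set of 7 ratios, chosen after the values had been seen, with an exact permutation p of 0.1 each (0.1 adjusted over 7).

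**Figure D3:**
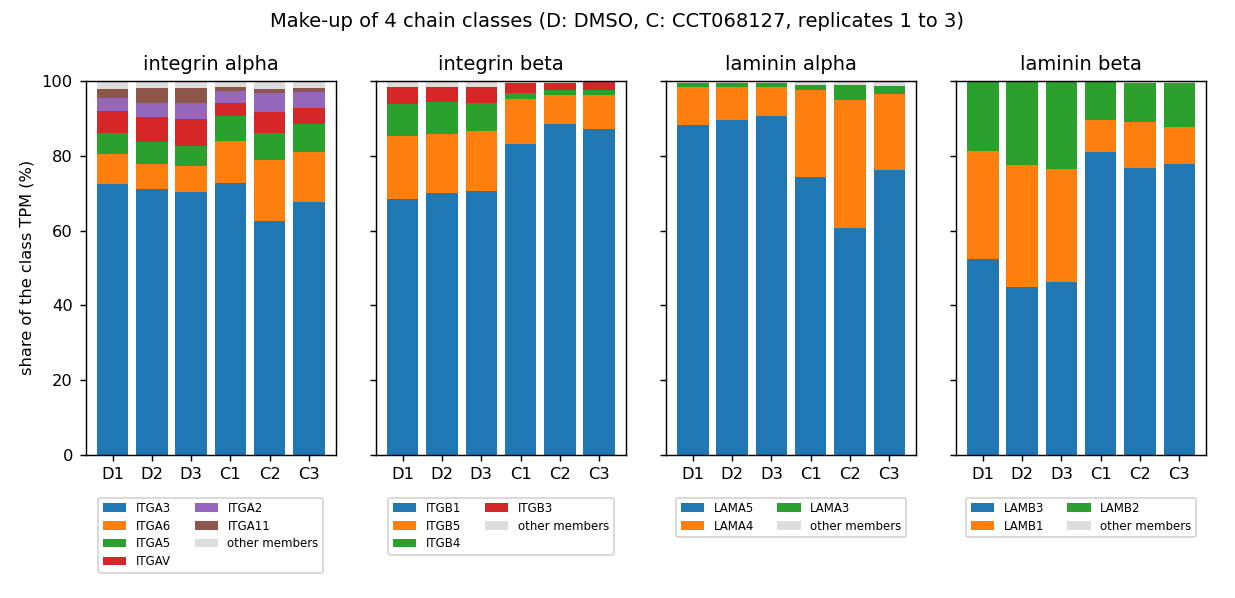
Share of the summed TPM of each chain class held by its members, for 4 classes, as stacked bars for DMSO replicates 1 to 3 (D1 to D3) and CCT068127 replicates 1 to 3 (C1 to C3). Members with a mean share under 2% in both groups are pooled. ITGB4 shrinks in the integrin beta class from 8.28% to 1.43% on average, and LAMB1 and LAMB2 shrink in the laminin beta class.

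For 2 laminin alpha chains the counts and TPM disagreed in size or direction. LAMA4 stood at 16.2, 14.2 and 12.1 TPM in DMSO and at 21.0, 27.9 and 15.6 TPM in CCT068127 libraries, with overlap. LAMA3 stood at 1.77, 1.46 and 1.47 TPM in DMSO and at 1.06, 3.19 and 1.74 TPM in CCT068127 libraries. The number of counts per TPM, which follows the transcript length that the quantification assigned to a gene, was taken relative to the median of 3582 well-covered genes of the same library. For LAMA3 it was 3.08, 3.11 and 2.51 in DMSO and 2.18, 1.00 and 1.31 in CCT068127 libraries, and for LAMA4 1.10, 1.33 and 1.52 and then 0.815, 0.688 and 0.984. Both genes thus had fewer counts per TPM in every treated library, a mean log2 difference of -1.02 for LAMA3 and -0.67 for LAMA4. ITGA10 showed -0.41 on 13, 1 and 2 treated counts. The other 22 tested members stayed between -0.07 and 0.03. GENCODE release 29 lists 10 protein-coding LAMA3 transcripts of 462 to 10661 bases and 14 for LAMA4 of 539 to 6547 bases, and which of them were present was not analysed here.

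The remaining 13 members were too low to enter the main test. These are ITGA2B, ITGA4, ITGA8, ITGA9, ITGAD, ITGAL, ITGAM, ITGAX, ITGB6, ITGB7, LAMA2, LAMB4 and LAMC3. ITGA8, a chain known from kidney development and smooth muscle, had 27, 24 and 0 counts in DMSO and 5, 4 and 14 counts in CCT068127 libraries. Relative to the library totals, with no TMM scaling, that is 0.0649 CPM over the pooled DMSO and 1.90 CPM over the pooled CCT068127 libraries, a ratio of 29.2 (exact 95% counting interval 17.0 to 48.7). LAMB4, a little-studied laminin beta chain, had 53, 59 and 0 counts in DMSO and 6, 3 and 11 counts in CCT068127 libraries, and its pooled CPM differed by a ratio of 11.6 (6.81 to 18.7). The leukocyte chain ITGAL had 98 counts in all in DMSO and 12 in CCT068127, a ratio of 7.93 (3.96 to 14.5), and LAMC3 51 and 5 counts, a ratio of 6.35 (1.98 to 15.8). The intervals of ITGA2B, ITGA9, ITGAM, ITGAX, ITGB6 and LAMA2 included a ratio of 1. All these intervals cover counting error only, not the spread between libraries. ITGA4, ITGAD and ITGB7 had 14 or 15 counts in all over the DMSO libraries and 0 in every CCT068127 library, which was not enough to detect a difference. Without a low-count filter in edgeR, ITGA8 (adjusted p = 1.21e-14), LAMB4 (5.92e-09), ITGAL (3.57e-05) and LAMC3 (0.017) passed as higher and the other 9 did not (adjusted p from 0.187 to 0.954). DMSO replicate 3, at a depth like that of the treated libraries, had 0, 0, 0 and 1 counts of these 4 genes.

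Other genes of the adhesion pathway were taken as lists. Of 39 genes of the intracellular adhesion machinery 38 were tested, and 14 rose and 12 fell (68.4% called, beside 64.7% of all tested genes), with a median log2 fold change of 0.08. RSU1, a partner of the ILK complex (1.57 ± 0.10), the scaffold PXN or paxillin (1.26 ± 0.11), and the actin crosslinkers ACTN4 (1.56 ± 0.15) and ACTN1 (0.90 ± 0.13) had the smallest adjusted p among those that rose. FERMT3, which activates integrins in blood cells, had the largest change (1.96 ± 0.30). It was low, at a mean of 0.893 CPM in DMSO and 3 CPM in CCT068127 libraries, the latter on 33 counts in all. Since its DMSO level was below the 1.74 CPM of the low-count filter, FERMT3 entered the test only through the group where it was higher. The focal adhesion linkers TNS3 (-1.27 ± 0.10) and TNS2 (-1.52 ± 0.18) and the talin-binding KANK2 (-1.17 ± 0.12) and KANK1 (-0.70 ± 0.11) had the smallest adjusted p among those that fell. The talin gene TLN1, which activates integrins, passed at 0.32 ± 0.12 (edgeR adjusted p = 0.0306), but its groups overlapped in TPM. The kinase genes PTK2 (-0.03 ± 0.11) and ILK (-0.03 ± 0.15) did not pass. Scaling by library totals left 6 of the list higher, and log2(TPM + 1) values gave 5 higher and 19 lower. Over all genes library totals called 3006 of 13597 higher and 6567 lower. On log2(TPM + 1) values 2474 of 14394 genes were higher and 7472 lower.

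Integrin-associated surface proteins and hemidesmosome partners numbered 11, all tested, of which 7 rose and 3 fell, with a median log2 fold change of 0.82. That is 90.9% called, beside 64.7% of all tested genes (31.9% higher and 32.8% lower). The tetraspanin genes CD151 (1.41 ± 0.10), CD9 (1.30 ± 0.11) and CD81 (1.08 ± 0.10) and BSG (1.49 ± 0.11) rose. CD151 is known to bind laminin-binding integrins. The plakin genes PLEC (-0.49 ± 0.13) and DST (-0.79 ± 0.26), which link integrin alpha6beta4 to keratin filaments, and SLC3A2 (-0.44 ± 0.12), the heavy chain of amino acid transporters, fell. DST lost its call without DMSO replicate 1 or 2 (adjusted p = 0.0778 and 0.0696) and stood at -0.49 without CCT068127 replicate 1 (adjusted p = 0.00222). COL17A1, the transmembrane collagen of hemidesmosomes, rose from 0.547 to 4.89 CPM (3.10 ± 0.32, edgeR adjusted p = 1.09e-05). It was low, with 514 counts in all in DMSO and 55 in CCT068127 libraries. Its DMSO level was below the 1.74 CPM of the low-count filter, so it entered the test only through the group where it was higher. ITGB4, PLEC and DST were thus lower and COL17A1, ITGA6 and CD151 higher.

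Of 17 basement membrane partners and other laminin receptors 14 were tested, and 4 rose and 5 fell, with a median of 0.02. The share called was 64.3%, near the 64.7% of all tested genes (31.9% higher and 32.8% lower). The paired collagen IV genes COL4A1 (1.50 ± 0.10) and COL4A2 (0.69 ± 0.09) rose, while COL4A5 (-1.38 ± 0.13) and COL4A6 (-0.82 ± 0.14) fell. NTN4, a laminin-related netrin (-2.03 ± 0.11), and HSPG2, the proteoglycan perlecan (-0.97 ± 0.12), fell. RPSA, named for laminin binding and known mainly as a ribosomal protein, rose by 1.89 ± 0.09, and COL18A1 passed at 0.33 ± 0.13, a call lost on leaving out DMSO replicate 1 or 3 or CCT068127 replicate 1 or 3 (adjusted p from 0.0829 to 0.168). Library totals (0.02, adjusted p = 0.893) and an unfiltered fit (0.10, adjusted p = 0.686) gave no call either. The direction of COL18A1 turned on log2(TPM + 1) values (-0.16, adjusted p = 0.262), and without a TPM filter COL4A2 was not called (0.20, adjusted p = 0.0627). The nidogen gene NID1 (0.24 ± 0.10) and the laminin receptor genes DAG1 (0.06 ± 0.13) and BCAM (0.03 ± 0.10) did not pass. On log2(TPM + 1) values 8 of the list fell, beside 7472 of all 14394 genes tested on that scale.

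Other integrin ligands in the deposited data numbered 19, of which 13 were tested, and 6 rose and 4 fell, with a median of 0.25. The share called was 76.9%, beside 64.7% of all tested genes (31.9% higher and 32.8% lower). THBS1 (1.72 ± 0.09), CCN1 (1.88 ± 0.19), MFGE8 (1.13 ± 0.10) and TNC (0.89 ± 0.17), matrix or matricellular ligands, rose. FN1, fibronectin, was abundant at 6300 and 6600 CPM and did not pass (0.07 ± 0.11, edgeR adjusted p = 0.61). ICAM1, the ligand of leukocyte integrins, fell by 0.76 on the log2 scale, a call lost with limma-voom (adjusted p = 0.0771), TGFB2 by 0.44 and F11R by 0.35, the last with no call without DMSO replicate 2 (adjusted p = 0.0576). VCAM1, a ligand of alpha4 integrins, had 14795 counts in all in DMSO and 1 in CCT068127. The ratio of pooled counts relative to library totals was 0.00438 (exact 95% counting interval 0.000111 to 0.0244, which covers counting error only). VCAM1 varied between the DMSO libraries (18.7 ± 9.46 CPM, SD), and its log2 fold change was -7.61 ± 1.33 (edgeR adjusted p = 0.00144). It entered the test only through the DMSO libraries, and the size of its change rests on the 1 treated count. The log2 fold change was -14.64 without CCT068127 replicate 2, -6.07 with limma-voom and -3.52 on log2(TPM + 1) values. TNC was not called for log2(TPM + 1) (0.32, adjusted p = 0.0851), where 3 of the list rose, beside 2474 of all 14394 genes tested on that scale.

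**Figure D4:**
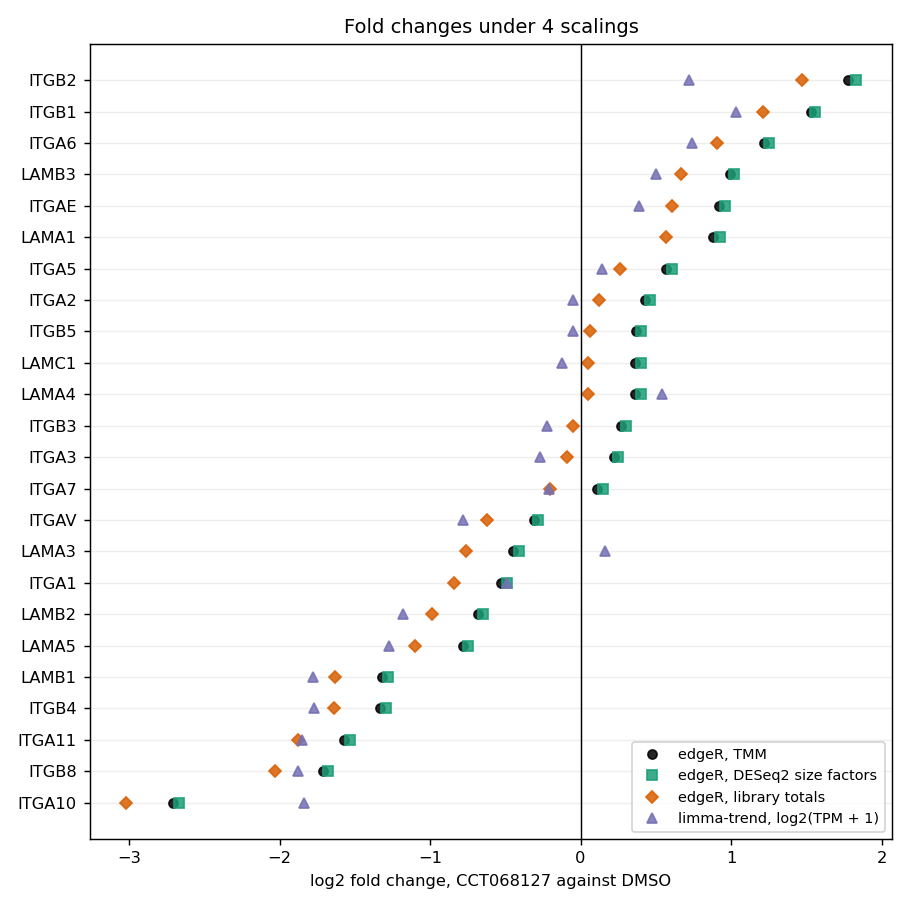
Log2 fold change of 24 tested members under edgeR with TMM, DESeq2 size factors or library totals and under limma-trend on log2(TPM + 1) (without LAMA1, which did not pass that filter), ordered by the TMM value. The ITGB1, ITGA6 and LAMB3 points stay right of 0 and those of LAMB2, LAMA5, LAMB1, ITGB4, ITGA11, ITGB8 and ITGA10 left of it under all 4, while ITGA2, ITGB5, LAMC1, ITGB3, ITGA3, ITGA7 and LAMA3 have points on both sides.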

How the data were processed

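Poly(A) RNA of 6 T-24 libraries was sequenced, 3 per group, with groups and replicate numbers taken from the titles. Per the submitters' processing notes RSEM, Bowtie and hg38 were used, and the annotation and strand setting are not given in the sources used here. The authors deposited expected counts as whole numbers for each gene symbol, and the deposited TPM are from the same quantification. No column was left out.

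Counts were tested in R 4.3.3 with edgeR 4.0.16: filterByExpr (10 counts or 1.74 CPM for a library of median size, in 3 or more libraries), TMM, a robust quasi-likelihood fit on treatment, two-sided p-values adjusted by Benjamini-Hochberg over all 13597 genes, and a threshold of 0.05. Unless another tool is named, adjusted p and standard errors (from the F statistic) come from this fit. CPM use TMM-scaled totals, except floors and the pooled CPM of genes with few counts, which use library totals. TPM were tested as log2(TPM + 1) with limma 3.58.1 on genes with at least 1 TPM in 3 libraries, which understates low genes. The code was tested on simulated data. Alternatives were other scalings, no filter, DESeq2 1.42.0, limma-voom, the replicate number as a block, thinned deep libraries, DMSO replicate 3 as the only control and leaving out each library. Within groups no pair of libraries agreed within counting noise (chi-square per degree of freedom at least 1.9), so each counted as 1 replicate. P-values set the difference between groups against the spread between these samples of 1 cell line.

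Members and lists were chosen with earlier results of these data known. Named members are the tested ones except 1 result that is not reported here, and of each list up to 4 called genes per direction by smallest adjusted p, with COL17A1, FERMT3, TLN1, PTK2, ILK, NID1, DAG1, BCAM and FN1 added after their values were seen. RefSeq promoter windows are of GRCh38.p14.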

Additional observations from a re-analysis of the deposited data

How the results depend on the processing

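ITGB1, ITGA6, ITGA10, ITGA11, ITGB4, ITGB8, LAMA5, LAMB1 and LAMB2 kept their direction and call under all 16 alternatives with calls, and LAMB3 under all but log2(TPM + 1) without a filter. Members that rose numbered 7 with library totals (median 0.27 becoming -0.05), 5 on log2(TPM + 1) with a filter (median -0.17), 5 without one (median -0.12) and 4 on log2(TPM + 0.1) (median -0.17). Without a low-count filter the median was 0.03. Leaving out 1 library gave 8 to 14 higher, 7 to 9 lower and medians of 0.19 to 0.34. The gap between the median of the tested members and that of all genes was 0.32 with TMM, DESeq2 size factors and library totals. It was 0.29 on log2(TPM + 1) and 0.36 on log2(TPM + 0.1) with a filter, and 0.24 to 0.41 with 1 library left out. It was 0.52 without a low-count filter and -0.08 on log2(TPM + 1) without a filter. These unfiltered fits set members of the main test against unfiltered genes, so both gaps compare unlike sets. Over all 38 members the medians there were 0.07 and -0.01, beside -0.49 and -0.04 over all genes. With the deep DMSO libraries thinned 13 members rose and 7 fell, and with DMSO replicate 3 as the only control the median was 0.29.

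Over all genes 2474 rose and 7472 fell of 14394 on log2(TPM + 1) with a filter, and 2444 and 7299 on log2(TPM + 0.1). On log2(TPM + 1) without a filter 3039 rose and 7365 fell of 27872, beside 4333 and 4460 of 13597 in the main test. The edgeR fit without a low-count filter called 5519 higher and 6300 lower of 29138. With library totals 31.4% of calls were higher, beside 49.3%. Adhesion machinery genes that rose numbered 6 with library totals, 6 without a low-count filter and 5 on each of the TPM scales, and 19 fell on log2(TPM + 1) and on log2(TPM + 0.1) with a filter. Basement membrane partners that fell numbered 8 on all 3 TPM scales, and 2 rose on log2(TPM + 1) without a filter. Other integrin ligands that rose numbered 3 on both filtered TPM scales, and 7 fell without a filter. Leaving out 1 library gave 8 to 13 adhesion machinery genes lower.

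Direction turned on all 3 TPM scales for ITGA2 (-0.05), ITGA3 (-0.27), ITGB3 (-0.22), ITGB5 (-0.05), LAMC1 (-0.12) and COL18A1 (-0.16), and with library totals for ITGB3 (-0.05). The uncalled ITGA7 (-0.21 to -0.35) and LAMA3 (0.16 to 0.21) also turned on the TPM scales, ITGA3 (-0.09) and ITGA7 (-0.20) with library totals and without a low-count filter (-0.02 and -0.14), and ITGA7 without DMSO replicate 2 (-0.01) or CCT068127 replicate 1 (-0.09). The replicate block ended the call of COL18A1 (adjusted p = 0.0543). The cause was not tested. Over all tested genes, deviations of same-numbered libraries from their group means were uncorrelated (r from 0 to 0.01). Counting error in the shallow libraries lowers such correlations, so they cannot show whether the replicate numbers mark pairs. With the replicate number as a block 12 members rose and 8 fell, ITGB3 losing (0.27, adjusted p = 0.0545) and ITGAV gaining (-0.32, adjusted p = 0.037) its call, and not every library correlated best with its own number. The 4 shallow libraries limit low members.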
